A study of Danio rerio with 8 samples.

Results

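The data describe control zebrafish larvae at 4 days post fertilization, the 4 control samples of a series of 8 arrays. Each sample was total RNA from 10 whole larvae of the WIK background, pooled, labelled with Cy3 and hybridised to a 1-colour array with one probe set for the whole genome. The labels call these larvae wild type and name control as their treatment. They came from the same egg pools as the other larvae of the series. The labels do not state whether the control larvae were injected, so the group is described here only as control. The 4 pools are the replicates, and all spreads below are standard deviations (SD) between pools, n = 4. Only 1 group is described, so no test was made and every comparison between pools is a description.

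At this age a zebrafish larva has hatched, moves with a functioning trunk musculature, sees with a layered retina behind a transparent lens, and still carries yolk. The liver, pancreas and gut have formed and feeding is about to begin or has just begun. Germ cells are few, and lymphocytes are only starting to mature in the thymus. A whole-larva extract mixes the RNA of all these tissues, so a difference in signal between pools can come from the share of a cell type or from the amount of RNA per cell, and these cannot be told apart.

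A level is the log2 of the background-subtracted signal minus the 75th percentile of its array, so a level of 0 is the signal at that percentile and a difference of 1 is a 2-fold difference. A probe's brightness also depends on its sequence and labelling, so the order of the levels is an order of signals and not of transcript numbers. The 4 arrays held 43603 probes each. The 75th percentile lay at signals of 1084 to 1490, 83.8% to 84.9% of the spots were well above background, no spot was saturated, and spike-in probes had median signals of 2110 to 2747. No 2 arrays held identical values. Pools correlated with each other across probes at Pearson's r of 0.979 to 0.992, with pools 2 and 3 most alike and pools 1 and 4 least alike. Of the probes well above background on every array, 1.01% differed 2-fold or more between pools 2 and 3. The share was 3.24% to 7.64% in 4 further pairs and highest between pools 1 and 4. Pool numbers are those of the scanner files. In the deposited value table, the columns of the samples titled control 2, 3 and 4 ranked the probes like scanner files 4, 2 and 3 (Spearman correlation 0.999998 to 0.999999). Pool 4 of this text is therefore the column of the sample titled control 2. These numbers are those of the titles and not positions in that table. Slide, scan and pool are one thing within these samples and cannot be told apart.

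Most of the genome's probes gave a signal. Of 43603 probes, 35182 (80.7%) were marked well above background on all 4 arrays and 5157 (11.8%) on none, while 1204 were marked on 3 arrays, 874 on 2 and 1186 on 1. Probes for RefSeq transcripts were above background on all 4 arrays in 89.0% of cases and on none in 6.02%. Of the probes for Ensembl transcripts, 75.7% were above background on all 4 arrays. Taken per gene, 22411 of 28550 genes (78.5%) had a probe above background on all 4 arrays and 3870 (13.6%) had none above background on any array. Genes that could be given a symbol were detected more often, with 92.7% on all 4 arrays and 4.03% on none, against 21.4% on none among genes without a symbol. Members of the gene lists below all have symbols, so their detection is best read beside the 92.7%. Probes of the same gene can disagree: notch3 had 1 probe above background on all 4 arrays and another on none. A gene above background on no array is therefore not shown to be unexpressed.

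**Figure D1:**
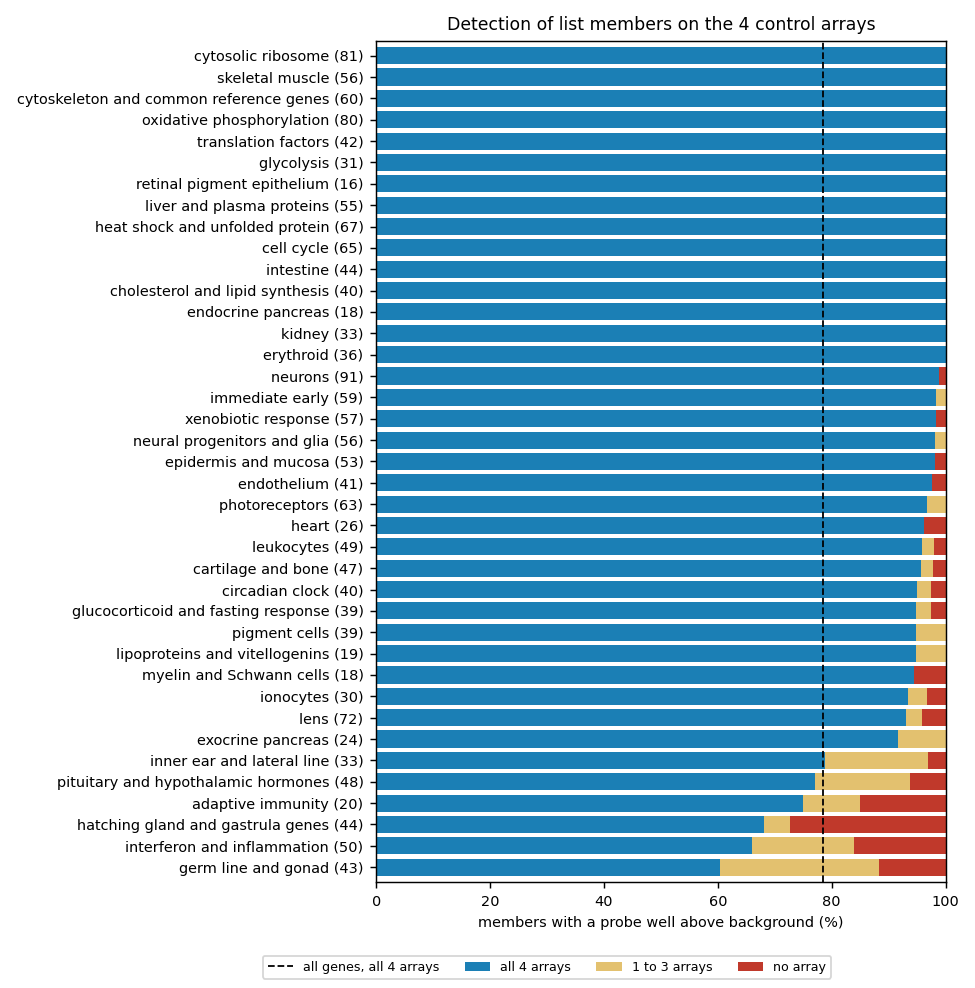
Share of each list's measured members (number in brackets) with a probe well above background on all 4 control arrays (blue), on 1 to 3 arrays (yellow) and on no array (red), in percent; the dashed line is the 78.5% of all genes on all 4 arrays (92.7% of genes with a symbol). Housekeeping, muscle, liver and gut lists are blue to the end, while 12 of 44 genes of the hatching gland and gastrula list and 5 of 43 of the germ line list are red.

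The brightest signals belonged to the ribosome, the lens and skeletal muscle. Among the 100 named genes with the highest mean level, 51 encode proteins of the cytosolic ribosome, 15 are lens genes and 10 are skeletal muscle genes. The brightest of all probes was that of rpsa, a protein of the small ribosomal subunit, at levels of 8.52, 8.36, 8.13 and 8.31 in pools 1 to 4. Next came crygm2d2, a gamma crystallin that fills the lens fibre cells, at 8.59, 8.39, 7.93 and 8.16. rpl8, of the large ribosomal subunit, stood at 8.50, 8.21, 8.06 and 8.09. The 30 brightest named genes lay between 8.33 and 7.76, and 0 of the gaps between neighbours in that order exceeded the between-pool SD of both neighbours, so their order is not resolved.

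Beside 15 ribosomal proteins, those 30 genes held 6 gamma crystallins, the elongation factors eef2b (7.99 ± 0.17) and eef1a1l1 (7.98 ± 0.19), the cytosolic chaperone hsp90ab1, the mitochondrial ADP/ATP carrier slc25a5 (7.87 ± 0.23) and the nucleoside diphosphate kinases nme2b.1 and nme2b.2. They also held 2 muscle genes, the fast troponin T gene tnnt3b (7.85 ± 0.27) and the tropomyosin gene tpma (7.83 ± 0.17). A single gene of the liver list was among them, rbp4, which encodes the plasma carrier of retinol, at 8.14, 7.77, 7.70 and 7.80. In all 30 genes pool 1 was the brightest and pool 3 the dimmest. The same order held for bright genes at large: over the 299 genes with a level over 6, the median difference of pools 1 to 4 from the gene mean was 0.25, 0.02, -0.17 and -0.07. Among the 4060 detected genes under a level of -4 it was -0.09, 0.06, -0.07 and 0.11. Among bright and dim genes, differences of this size between pools therefore went with brightness and are not read as differences of a gene or list. Genes at levels of 0 to 2 differed less, by 0.011, 0.004, -0.011 and 0.018.

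**Figure D2:**
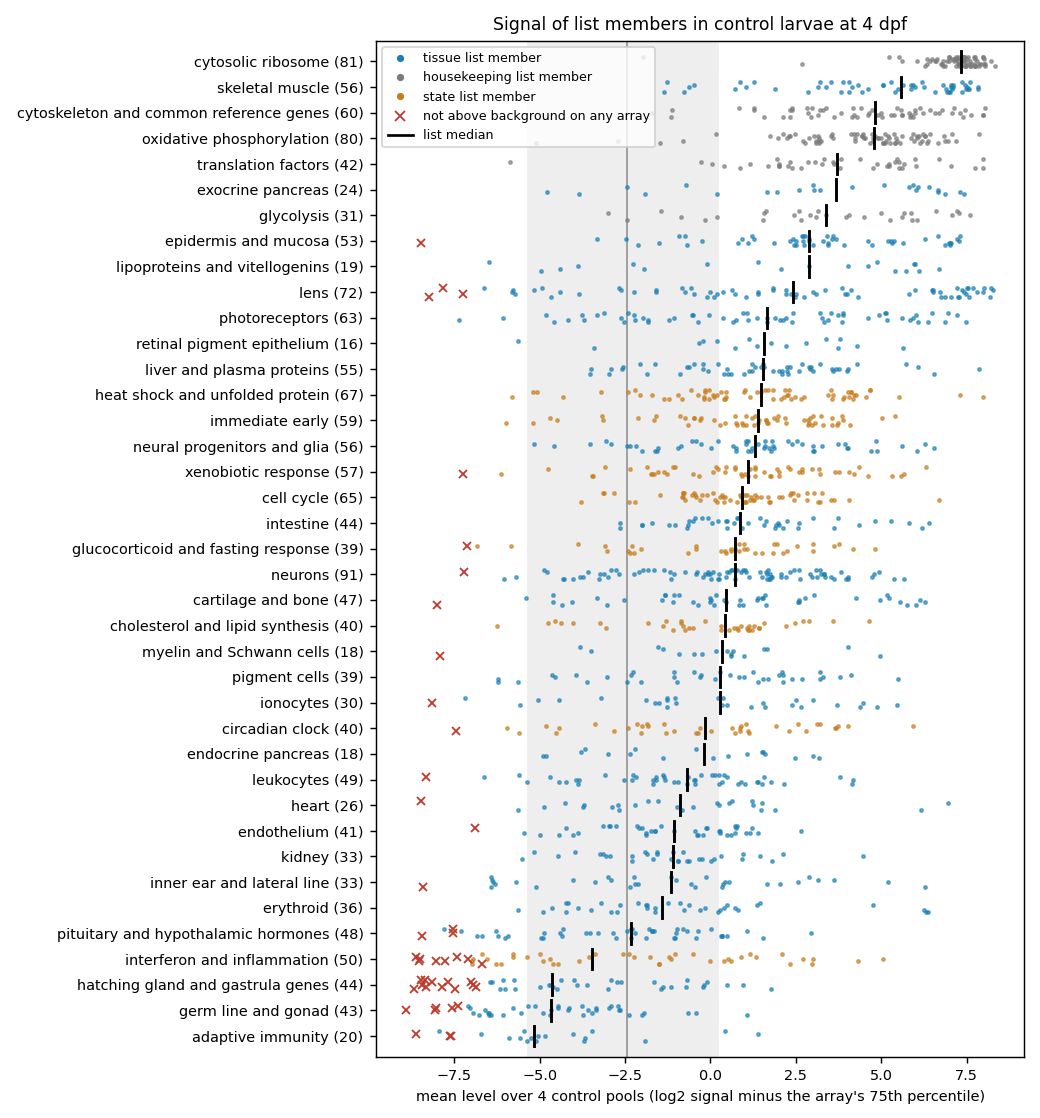
Mean level over the 4 control pools (log2 signal minus the array's 75th percentile) of every measured member of 39 gene lists, ordered by list median (black bar); red crosses are members above background on no array, and the grey band and line give the quartiles and median of all genes. The median runs from 7.35 for the cytosolic ribosome to -5.18 for adaptive immunity.

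The lists ranked by the signal of their median gene as follows. The median level of all 28550 genes was -2.44, and the 1% brightest genes, 286 in number (1% of the genes by definition), began at a level of 6.07. Of these 286 genes, 234 have a symbol, against 12858 of all 28550 genes. All list members have symbols, so part of a list's high place or share is common to genes with a symbol. The percentiles are among all genes. The cytosolic ribosome list had a median level of 7.35, at percentile 99.6 of all genes, and 75 of its 81 members (92.6%) were among the 1% brightest. Oxidative phosphorylation stood at percentile 98.0 with 16 of 80 members among the brightest, and the list of cytoskeletal and common reference genes at 98.1 with 15 of 60. Translation factors lay at percentile 96.3 and glycolysis at 95.5. These lists cover functions common to most cells, though not every member is used in every cell. Each of the 5 had all its measured members above background on all 4 arrays. No gene of the mitochondrial genome matched a probe.

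Skeletal muscle was the brightest tissue list. All 56 measured members were above background on all 4 arrays, the median level was 5.57 (percentile 98.7), and 23 members (41.1%) were among the 1% brightest genes. After tnnt3b and tpma came eno3, the muscle enolase (7.61 ± 0.22), mylpfb, a fast myosin light chain (7.57 ± 0.15), and atp2a1, the calcium pump of the sarcoplasmic reticulum (7.54 ± 0.17). The list's median lay at 5.59, 5.52, 5.53 and 5.81 in pools 1 to 4, and its median between-pool SD of 0.18 was below the 0.24 of all detected genes. Its most variable member was ryr1b, a calcium release channel, at -2.03, -0.87, -1.83 and -0.37, higher in pools 2 and 4 than in pools 1 and 3. The heart list was lower, with a median level of -0.89 (percentile 64.6) and 25 of 26 members on all 4 arrays. Its leading genes actc1a (6.94 ± 0.12) and fabp3 (6.15 ± 0.26) are also used in other tissues. The chamber myosin light chain myl7 had levels of 2.12, 1.87, 2.06 and 1.57, and bmp10, a growth factor of the heart, was above background on no array.

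The eye gave strong signals from both its optics and its light sensing cells. The lens list had a median level of 2.42 (percentile 91.7) with a wide range, and 23 of 72 members (31.9%) were among the 1% brightest. All of these are of the crystallin family, led by crygm2d3 (8.22 ± 0.31), crygm2d10 (8.18 ± 0.21) and crygm2d7 (7.99 ± 0.19). The crygm2d genes are a family of close copies, so a probe of one may also bind transcripts of others and the level of each single copy is uncertain. The lens list also held members marked well above background on no array, namely crygs1, crygm6 and crygm2d21. The small heat shock crystallin cryaa was at 2.74 ± 0.12, while cryaba was at -5.72 ± 0.21. Photoreceptors had 61 of 63 members on all 4 arrays, a median level of 1.66 (percentile 87.2) and 7 members among the 1% brightest. The rod opsin rho stood at 7.68, 7.58, 7.32 and 7.34, the cone transducin gamma subunit gngt2b at 7.23 ± 0.19, the cone phosphodiesterase subunit pde6ha at 6.96 ± 0.17 and the red opsin opn1lw2 at 6.50 ± 0.14. The ultraviolet opsin opn1sw1 (6.01 ± 0.20), the blue opsin opn1sw2 (5.11 ± 0.22) and the green opsin opn1mw1 (6.08 ± 0.24) were all well above background. Of the later copies of the green opsin, opn1mw2 was at 0.76 ± 0.43, opn1mw4 at -4.80 ± 0.96 and opn1mw3, above background on 3 arrays, at -6.07 ± 0.55. Retinal pigment epithelium lay at percentile 86.6 with all 16 members on all 4 arrays, led by rpe65a, the isomerase of the visual cycle (5.63 ± 0.22).

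Genes of the nervous system were detected almost without exception at moderate signals. Of 91 neuronal genes, 90 were above background on all 4 arrays, with a median level of 0.71 (percentile 79.6), and 0 were among the 1% brightest. The tubulin-binding stathmin stmn1b (5.67 ± 0.19), the GABA transporter slc6a1b (4.80 ± 0.17) and the synaptic fusion protein stxbp1a (4.74 ± 0.15) were among the highest. Only stmn4 of this list was above background on no array. Neural progenitors and glia stood at percentile 84.6, with 55 of 56 members on all 4 arrays and fabp7a, a fatty acid binding protein of radial glia, at 6.54 ± 0.24. Myelin and Schwann cell genes stood at percentile 76.0. In that list pmp22b, a membrane protein gene also used outside myelin, was at 4.97 ± 0.05 and erbb3b, a neuregulin receptor of Schwann cells, was above background on no array. Over the 90 detected neuronal genes, the median difference from the gene mean was -0.21 in pool 1 and 0.17 in pool 4. The median of all detected genes was -0.01 in pool 1 and 0.04 in pool 4.

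Skin and skeleton followed. Epidermis and mucosa had a median level of 2.90 (percentile 93.9) and 10 of 53 members among the 1% brightest, with the keratins cyt1l (7.31 ± 0.33), krt92 (7.28 ± 0.17) and cyt1 (7.22 ± 0.22) in front. Cartilage and bone lay at percentile 77.3, led by the type I collagen genes col1a1b (6.29 ± 0.19) and col1a2 (6.14 ± 0.19) and by the cartilage collagen gene col2a1a (5.73, 6.23, 5.76 and 6.42 in pools 1 to 4). The osteoblast factor runx2a had no signal above background on any array. Ionocytes stood at percentile 75.6 with the sodium pump subunit atp1b1a at 5.48 ± 0.16, and pigment cells also at percentile 75.6 with tyrp1b, an enzyme of melanin synthesis, at 6.04, 5.23, 5.63 and 5.13.

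Globin signals covered a wide range. The erythroid list had all 36 members on all 4 arrays but a median level of only -1.43 (percentile 59.4). The embryonic globins hbae1.1 (6.70, 6.36, 6.11 and 6.35), hbae3 (6.24 ± 0.30) and hbbe2 (4.76 ± 0.35) were bright, but the embryonic globins hbae4 (-1.62 ± 0.41) and hbbe3 (-4.23 ± 0.86) were not. The adult globins hbaa2 (-4.22 ± 0.91), hbba2 (-4.63 ± 0.25) and hbba1 (-5.65 ± 0.44) were near the bottom of the detected range. The leukocyte list lay at percentile 66.4 and 47 of 49 members were on all 4 arrays. It contained the carboxypeptidase gene cpa5, which also stands on the exocrine pancreas list. The granulocyte receptor gene csf3r was not above background on any array. Adaptive immunity had the lowest median of the 39 lists, -5.18 (percentile 26.1). Its 20 members included 15 on all 4 arrays, among them the T cell kinase lck (-3.46 ± 0.12) and the recombinase gene rag2 (-4.78, -4.98, -5.10 and -6.13), and 3 on none, the co-receptor cd8a, cd247l and il2rgb. Endothelium stood at percentile 63.0, kidney at 62.6 and inner ear and lateral line at 62.1. In the ear list 6 of 33 members were above background on only 1 to 3 arrays.

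Lists of the digestive organs ranged from percentile 96.2 for the exocrine pancreas to 71.3 for the endocrine pancreas. The exocrine pancreas list, mostly the secretory enzymes of the acinar cells, had a median level of 3.67 (percentile 96.2) and 7 of 24 members (29.2%) among the 1% brightest. Liver and plasma proteins stood at percentile 86.3 with all 55 members on all 4 arrays, and rbp4, fabp10a, a liver fatty acid binding protein (6.56 ± 0.44), and serpina1, a protease inhibitor of plasma (6.07 ± 0.26), were the highest. Lipoproteins and vitellogenins stood at percentile 93.8, led by the apolipoprotein genes apoa2 (7.43, 6.4, 6.90 and 6.01) and apoa1a (6.72, 5.53, 6.28 and 5.90). The intestine list had all 44 members on all 4 arrays and a median level of 0.87 (percentile 81.0), with the fatty acid binding proteins fabp1b.1 (6.4 ± 0.45) and fabp2 (6.2 ± 0.61) in front. The endocrine pancreas stood at percentile 71.3, where insulin (ins) had levels of 3.67, 3.22, 3.28 and 2.51.

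At the other end were genes of earlier stages, of the gonad and of hormone cells. The hatching gland and gastrula list had a median level of -4.65 (percentile 30.4), and 12 of its 44 members were on no array (4.03% of genes with a symbol), among them the organiser gene dharma (-8.46), the bone morphogenetic protein regulator szl (-8.69), and the segmentation genes her1 (-8.36) and mespaa (-8.44). Its highest member was the homeobox gene gsc (1.78 ± 0.13), which the head skeleton also uses later. The hatching enzyme he1.2 stood at -1.22, -0.01, -2.12 and -2.20, and he1.1 at -2.55, -1.66, -3.64 and -4.18. Both were highest in pool 2. The germ line and gonad list had a median level of -4.68 (percentile 30.2), with 26 of 43 members on all 4 arrays, 12 on some and 5 on none. The oocyte gene btg4 (-8.93), the meiotic gene spo11 (-7.56) and the ovarian aromatase cyp19a1a (-8.05) were on none, while the cell cycle gene ccnb1, used in all dividing cells, led the list at 1.06 ± 0.11. Pituitary and hypothalamic hormones stood at percentile 51.1, with 37 of 48 members on all 4 arrays. Luteinising hormone beta (lhb), smtla and ghrh were on no array. Growth hormone (gh1) was detected in every pool, at 0.75, -0.82, -0.77 and -2.40, and pools 2 and 3 lay between a high pool 1 and a low pool 4.

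Lists that follow the state of the larvae rather than a tissue mostly stood above the median of all genes, with and without a symbol. Heat shock and protein folding genes stood at percentile 85.8, immediate early genes at 85.3, xenobiotic response at 83.1, cell cycle at 81.4, glucocorticoid and fasting response at 79.7, cholesterol and lipid synthesis at 77 and the circadian clock at 71.5. Among them btg1 (5.41 ± 0.14), the DNA replication helicase subunit mcm7 (4.06 ± 0.21) and the clock repressor nr1d2b (4.04 ± 0.05) were bright. The median SD of detected genes at levels of 4 to 6 was 0.18. The SDs of btg1 and nr1d2b lay below it and that of mcm7 above it. Interferon and inflammation stood apart at percentile 40.7, with 33 of 50 members on all 4 arrays, 9 on some and 8 on none. The proteasome gene psmb8a (-8.64), the interferon gene ifnphi2 (-8.52) and the histocompatibility gene mhc1uba (-8.52) were not above background. Histocompatibility genes differ between zebrafish strains, and whether the probe matches the WIK allele was not tested.

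The spread between pools was small for most probes. The median between-pool SD of the 35182 probes above background on all 4 arrays was 0.25, the 95th percentile 0.70 and the 99th 1.11. It was 0.32 in the 8796 dimmest of these probes and 0.19 in the 8796 brightest. For 50 probes the array carries 5 spots each. In the 29 of these above background on all 4 arrays, the median SD between spots of 1 array was 0.09 against 0.37 between pools, and the spread between pools was the larger in 26. Among the 1000 brightest genes the steadiest named ones were gpm6aa, a neuronal membrane glycoprotein gene (5.15, 5.14, 5.11 and 5.14), anp32a (4.13, 4.17, 4.13 and 4.17) and hnrnpaba, an RNA binding protein gene (5.06, 5.04, 5.02 and 5.02), each with an SD of 0.02. The muscle gene myoz1b (SD 0.03), the respiratory chain genes ndufs1 and ndufb8 (SD 0.04 each) and the pyruvate dehydrogenase gene pdha1a (SD 0.05) were also among the 10 steadiest.

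**Figure D3:**
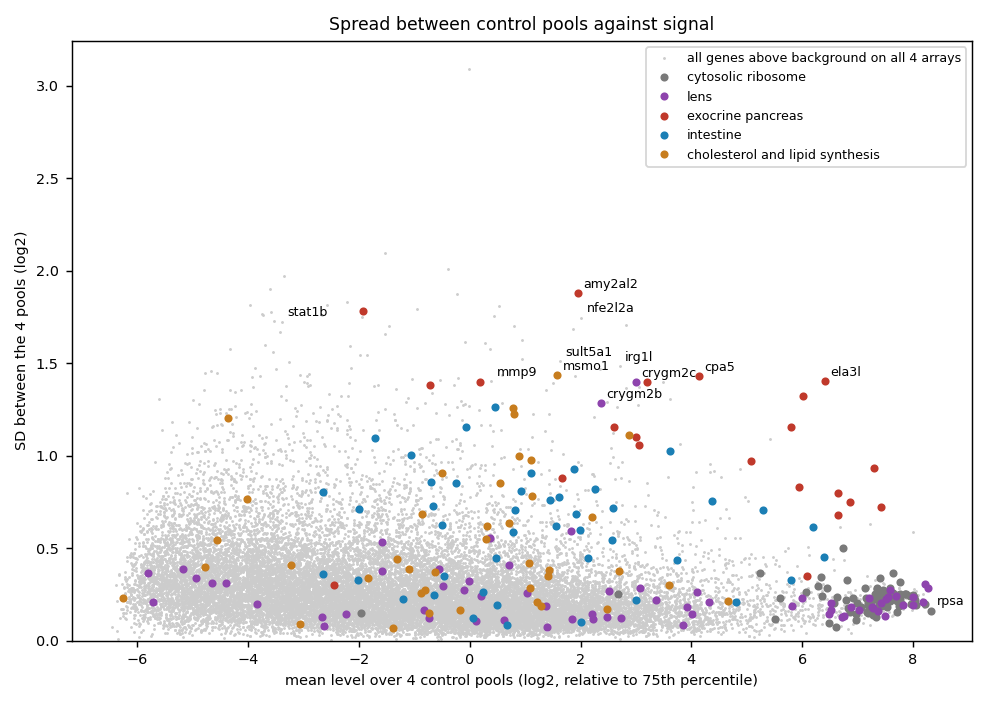
Between-pool SD (log2, vertical axis) against mean level (log2 relative to the 75th percentile, horizontal axis) of the genes above background on all 4 arrays (grey), with 5 lists in colour and some genes labelled. Ribosomal and most lens genes lie at the bottom right with small SDs, while exocrine pancreas genes such as ela3l and cpa5 are bright and have SDs of 1.4 and 1.43.

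Genes that differed most between pools were not spread evenly over the lists. The 5% most variable of the 22399 genes above background on all 4 arrays, 1120 genes (5% by definition), had SDs of 0.70 or more. Of these 1120 genes, 114 stood on a list, as did 1717 of all 28550 genes. Most of the class therefore lay outside the lists. The exocrine pancreas list placed 19 of its 22 detected members (86.4%) in this class, the intestine list 20 of 44 (45.5%), cholesterol and lipid synthesis 11 of 40 (27.5%), interferon and inflammation 7 of 33 (21.2%) and the liver list 10 of 55 (18.2%). Skeletal muscle placed 1 of 56, and the ribosome, oxidative phosphorylation, neuron, epidermis and cell cycle lists placed 0. Pool 4 was the farthest from the gene mean in 663 of the 1120 genes and pool 1 in 317 (28.3%), against 36.8% and 35.1% of all detected genes. Without pool 4, the count was 3 for the exocrine pancreas, 1 for the intestine, 3 for cholesterol and 3 for the liver list. These counts therefore rest on pool 4.

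A gene was called a departure where 1 pool stood 2-fold or more below or above every other pool. Pool 4 was lower in 406 of the 22399 genes (1.81%) and higher in 244 (1.09%). Pool 1 was lower in 253 (1.13%) and higher in 13 (0.058%). These counts depend on the background correction: with normexp correction pool 4 was lower in 202 genes and pool 1 in 98. The other pools departed rarely, pool 2 lower in 28 (0.125%) and higher in 27 (0.121%), and pool 3 lower in 6 (0.0268%) and higher in 23 (0.103%). Where a second probe of the gene was also above background on all 4 arrays, it could be set beside the first. For genes low in pool 4, pool 4 was the lowest by the second probe too in 114 of 129 genes, and 2-fold below every other pool in 80. For genes high in pool 4 these numbers were 30 and 8 of 42, and for genes low in pool 1 they were 27 and 6 of 48. Over all genes with 2 such probes, 50.3% had the same lowest pool by both. Among the 230 of them in the 5% most variable class, 72.6% did.

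**Figure D4:**
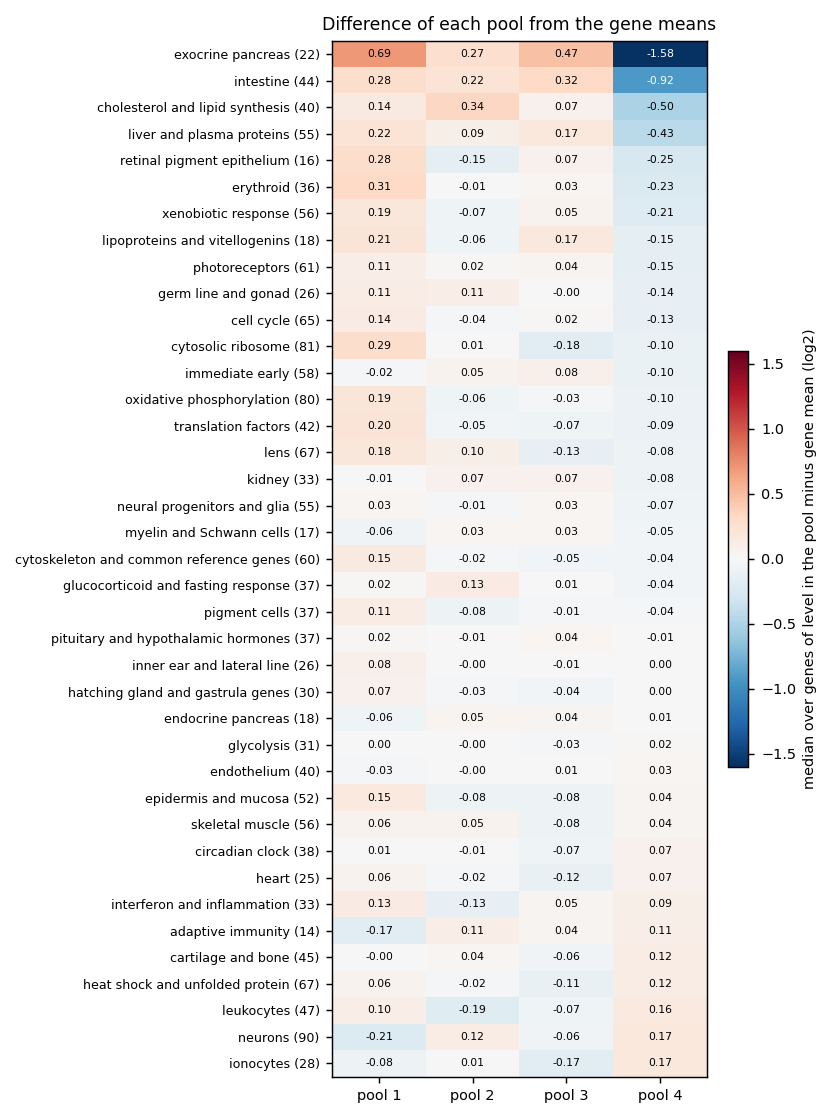
Median over each list's detected genes (number in brackets) of the difference between a pool's level and the gene's mean over the 4 pools, in log2 units, with lists ordered by pool 4 and colours from blue (lower) to red (higher). Pool 4 stands out in the top rows, at -1.58 for the exocrine pancreas, -0.92 for the intestine, -0.50 for cholesterol and lipid synthesis and -0.43 for the liver.

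The digestive enzymes of the pancreas were low in pool 4. All 22 exocrine pancreas genes above background on all 4 arrays had their lowest level in that pool, and 20 of them departed 2-fold or more, against 1.81% of all genes. In every gene some pool is the lowest and some pool the highest. The share of all detected genes lowest or highest in each pool was not counted. Counts of the lowest or highest pool, here and below, therefore stand without it. The median difference from the gene mean was 0.69, 0.27, 0.47 and -1.58 in pools 1 to 4. The mean of the other pools was 1.42-fold to 12.2-fold above pool 4, with a median of 4.3-fold. Trypsin (prss1) stood at 8.12, 7.65, 7.51 and 6.41. The elastase gene ela3l stood at 7.44, 6.93, 6.94 and 4.34, and its second probe at 3.80, 1.93, 2.82 and -1.41. The amylase gene amy2al2 stood at 3.53, 2.27, 2.75 and -0.76, and the carboxypeptidase gene cpa5 at 5.37, 4.28, 4.79 and 2.1. In each of these genes pool 4 was below all other pools, and pool 1 was the highest.

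The same held for further members. The lipase gene cel.1 stood at 1.68, 0.00, 0.70 and -1.63, and the elastase gene ela2 at 8.13, 7.55, 7.55 and 5.96. Pool 1 was the highest in 17 of the 22 genes, and among pools 1 to 3 alone the median SD of the list was 0.29. The elastase gene cela1.3 (-2.03, -4.26, -2.73 and -6.41) was above background on 3 arrays and is not in the count. One of the 22, the transcription factor gene ptf1a, specifies the pancreas and is also used in the nervous system. It was lowest in pool 4 too but differed little, at -2.31, -2.53, -2.13 and -2.83. Amylases, elastases and chymotrypsins are families of near copies, so single members may share signal. The outermost probes of the 22 genes lay in rows 11 and 524 of the array's 532 rows. Their outermost columns were 5 and 77 of 85. How the probes lay within these limits was not examined. Whether position on the array took part in the difference was not tested.

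**Figure D5:**
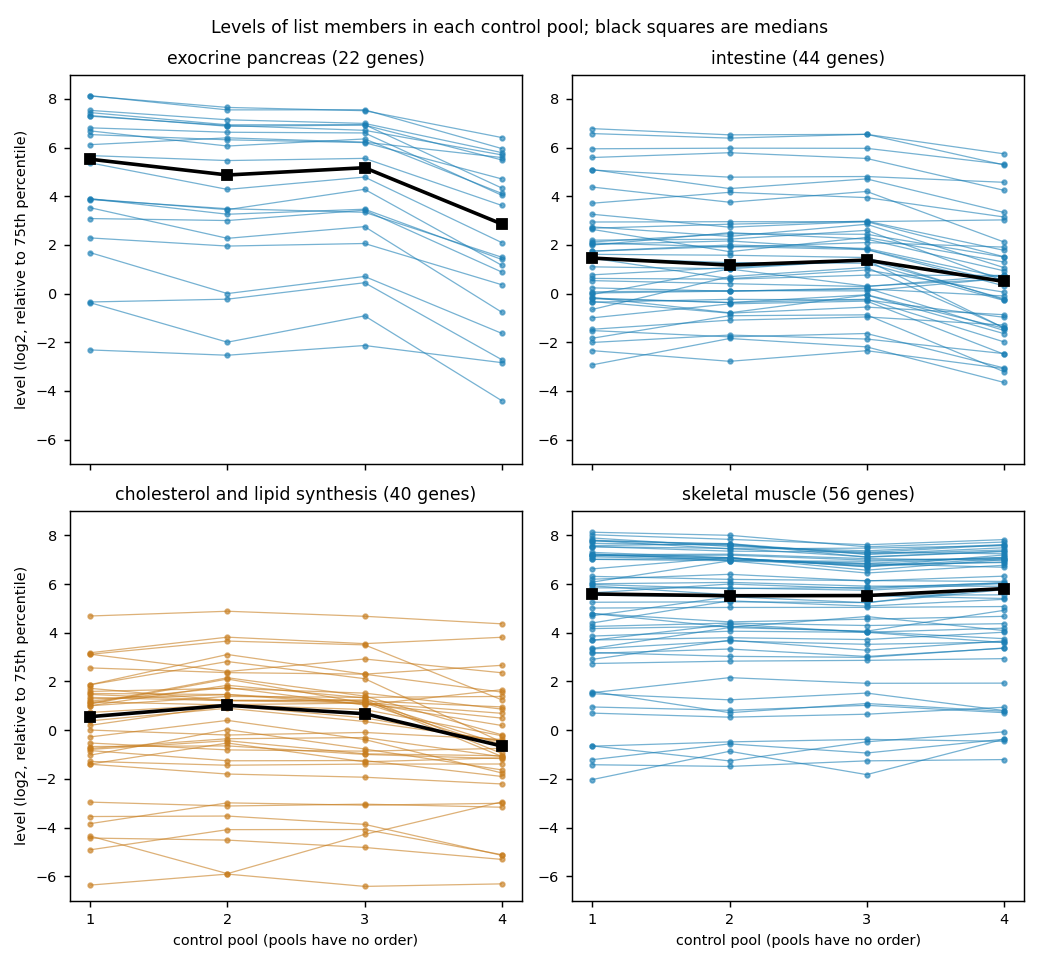
Level (log2 relative to the 75th percentile) of each detected member of 4 lists in control pools 1 to 4, with a thin line per gene and black squares for the median; pools have no order. Nearly all exocrine pancreas and most intestine lines drop in pool 4, cholesterol lines drop there and many peak in pool 2, and skeletal muscle lines stay level.

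The intestine followed the same pool to a smaller extent. Its median difference was 0.28, 0.22, 0.32 and -0.92, and pool 4 was the lowest in 38 of 44 genes. There, 20 departed downwards 2-fold or more, against 1.81% of all genes. The meprin protease gene mep1a.1 stood at 0.77, 1.07, 1.37 and -1.41, and the amino acid transporter gene slc6a19a.1 at -1.83, -0.91, -0.87 and -3.20. The chitinase gene chia.2 stood at 5.59, 5.79, 5.55 and 4.24, and fabp2 at 6.57, 6.39, 6.55 and 5.29. In chia.2 and fabp2 pools 1 to 3 lay close together, while in mep1a.1 and slc6a19a.1 pool 1 was also lower. Among pools 1 to 3 the median SD of the list was 0.17. Some members did not share the difference, such as the alkaline phosphatase gene alpi.1 (0.53, 0.41, 0.29 and 0.74) and the gut hormone gene pyya (0.62, 0.59, 0.76 and 0.75). The astacin protease gene c6ast3, which stands on no list, had levels of 1.59, 1.1, 1.22 and -1.55, with a second probe at 0.98, 0.58, 0.78 and -1.70.

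In the liver list pool 4 was the lowest in 38 of 55 genes. It departed downwards in 14, against 1.81% of all genes, with a median difference of -0.43. Among the most variable were the carboxylesterase gene ces2a (2.79, 2.37, 3.30 and 0.52), the detoxifying cytochrome gene cyp3a65 (2.35, 3.16, 3.70 and 1.11), which the gut also uses, and cyp7a1, the rate-limiting enzyme of bile acid synthesis (-0.31, 0.55, 0.55 and -1.64). The probes of cyp7a1 disagreed: a second one, also above background on all 4 arrays, was at 0.29, -2.0, -1.18 and 0.28, so no pool is named as its lowest. Plasma protein genes were mixed. The vitamin D binding protein gene gc (2.23, 1.63, 2.01 and 0.28) and the transthyretin gene ttr (1.85, 1.14, 1.4 and 0.12) departed 2-fold or more in pool 4, while serpina1 was at 6.35, 6.02, 6.18 and 5.74. Apolipoprotein genes were mixed, since pool 4 was lowest for apoda.2 (6.30, 5.54, 5.97 and 3.84), while apoeb was at 5.91, 5.75, 6.13 and 6.05. Insulin was lowest in pool 4 as well, but the endocrine pancreas list as a whole had a median difference of 0.01 in that pool. The median difference of all detected genes in pool 4 was 0.04. In the xenobiotic response list, genes of detoxification and export, 8 of 56 detected members departed downwards in pool 4, against 1.81% of all genes. The member cyp1c2 departed upwards, and the median difference of the list was -0.21. One of the 8, nfe2l2a, did not depart by its other probe.

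Sterol synthesis genes were low in pool 4, and many were highest in pool 2 by smaller margins. In the cholesterol and lipid synthesis list pool 4 was the lowest in 30 of 40 genes and pool 2 the highest in 22, with median differences of 0.14, 0.34, 0.07 and -0.50. With normexp background correction the difference in pool 4 was -0.29. In pool 4, 10 of the 40 genes departed downwards (1.81% of all genes) and 1 departed upwards. In pool 2, 0 of the 40 departed upwards (0.121% of all genes). The sterol methyl oxidase gene msmo1 stood at 1.87, 2.82, 2.12 and -0.49, and the lanosterol demethylase gene cyp51 at 1.01, 1.84, 1.32 and -0.96. dhcr7, which makes the last step to cholesterol, stood at 3.12, 3.66, 3.5 and 1.25. The rate-limiting reductase gene hmgcra stood at 1.1, 2.15, 1.4 and -0.19. By these probes pool 2 was the highest and pool 4 the lowest in all 4 genes. On the same list ebp was highest in pool 1, at 1.16, 1.03, 0.85 and -0.23. The other 3 probes of cyp51 were also lowest in pool 4 but highest in pool 1. Their regulator srebf2 differed far less, at 4.69, 4.88, 4.68 and 4.37, and srebf1, a regulator of fatty acid synthesis, went the other way at -4.35, -5.89, -4.28 and -2.95. The fatty acid elongase gene elovl2 was at 1.72, 1.22, 1.24 and -1.08.

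Some of the most variable genes were higher in pools 1 and 4 than in pools 2 and 3. They are named here because they have this pattern, so their number says nothing of its frequency. The immune gene irg1l stood at 3.85, 1.55, 1.3 and 4.12, and its second probe at 0.03, -2.57, -2.69 and 0.16. The sulfotransferase gene sult5a1 stood at 3.1, 0.51, 0.15 and 2.75. The chemokine gene ccl20a.3 stood at 0.78, -1.6, -1.33 and 1.05, with a second probe at 0.33, -2.14, -2.08 and 0.49. The cytokine gene il19l (-1.80, -5.27, -5.22 and -2.71) and the stress-inducible chaperone gene hspa1b (-2.15, -3.77, -4.3 and -1.33) were likewise higher in pools 1 and 4, as was tnfrsf9a, a receptor of the tumour necrosis factor family (1.09, -0.51, -0.58 and 1.66). The list of interferon and inflammation genes as a whole had small median differences in this order, of 0.13, -0.13, 0.05 and 0.09. The leukocyte list had 0.10, -0.19, -0.07 and 0.16, and the heat shock list 0.06, -0.02, -0.11 and 0.12. Lists of other kinds also had pools 1 and 4 above pools 2 and 3. Epidermis and mucosa had 0.15, -0.08, -0.08 and 0.04, and the heart list 0.06, -0.02, -0.12 and 0.07. The order is therefore not particular to immune and stress lists. Many other lists did not have it, such as the immediate early genes at -0.02, 0.05, 0.08 and -0.10.

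Other genes were high in pool 4 alone. The matrix metalloprotease gene mmp9 stood at -0.50, -0.36, -0.04 and 2.48. The signal transducer gene stat1b stood at -4.60, -3.61, -4.45 and -0.88, and the egg coat gene zp3a.1 at -4.74, -4.55, -4.55 and -1.1, but its second probe, above background on 1 array, was at -6.24, -6.32, -6.67 and -6.52. The serine protease gene htra3a was at -5.19, -5.22, -4.89 and -1.96, and both its further probes were also highest in pool 4. The calcium binding phosphoprotein gene scpp8 stood at -4.81, -4.39, -4.24 and -1.31. The leptin genes lepb (-8.43, -8.51, -8.58 and -1.87) and lepa (-6.23, -4.87, -5.26 and -3.17) were highest there too, and lepb was above background in no other pool. The heat shock gene hsp70l was at -0.01, 0.29, -0.04 and 1.37. Of the 33 detected interferon and inflammation genes, 3 departed upwards in pool 4, stat1b and mmp9 among them, against 1.09% of all genes. On the same list 1 gene, isg15, departed downwards there, at -1.73, -2.29, -1.51 and -4.02. The most variable immediate early genes, fosab (4.23, 4.43, 4.89 and 2.77) and btg2 (2.69, 3.26, 3.76 and 1.75), were lowest in pool 4, but rgs2, a regulator of G protein signalling, was at 1.01, -0.09, -0.49 and 0.72. The immediate early list had a median difference of -0.10 in pool 4.

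Pool 1 was low for a scattered set of genes. The lens crystallins crygm2c (1.15, 3.86, 4.27 and 2.74) and crygm2b (0.71, 3.13, 3.60 and 2.05) were lowest there and next lowest in pool 4, while the lens list as a whole had a median difference of 0.18 in pool 1. The cartilage gene ucmab stood at -3.00, -0.29, -0.17 and -0.97, and its second probe, at -3.84, -2.24, -2.25 and -2.97, was also lowest in pool 1. The endothelial gene plvapa (0.27 ± 0.92) was lowest in pool 1 at -1.05, and its second probe differed less, at -3.00, -2.60, -2.56 and -2.77. The respiratory chain assembly gene uqcc2 (-5.38, -2.48, -1.95 and -3.24) and the neuronal sodium pump gene atp1a3b (0.83, 2.19, 2.12 and 1.88) were also lowest in pool 1. The further probes of atp1a3b differed less between pools. Those at -1.57, -0.82, -1.03 and -0.99 and at -0.59, -0.09, -0.19 and -0.42 were lowest in pool 1. The dimmest, at -4.236, -3.946, -4.133 and -4.242, was lowest in pool 4.

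Some of the largest spreads rested on 1 probe. The oxidative stress regulator nfe2l2a stood at 2.74, 3.01, 2.91 and -0.60 by its brighter probe but at -0.40, -0.16, -0.09 and 0.14 by the other. The heparan sulfate polymerase gene ext1a stood at -1.67, -0.31, -1.42 and -3.98, while its other probes ranged from -4.42 to -4.13 and from -2.15 to -1.63 and were highest in pool 4. The channel gene panx1a was low in pool 2 by one probe (-1.62, -4.26, -1.32 and -1.49) and highest in pool 2 by the other (-4.48, -3.37, -4.18 and -4.34). In contrast, both probes of the photoreceptor dehydrogenase gene rdh8b were lowest in pool 4, at -1.62, -1.14, -0.90 and -4.25 and at -2.40, -2.61, -2.26 and -5.18. The single probes of cdk5r2b (-2.18, -1.41, -1.44 and -5.23) and lmbr1l (-0.94, 0.16, 0.45 and -3.49) have no second probe to set beside them. The same is true of other genes named above, among them mmp9, scpp8, lepa, lepb, hsp70l, uqcc2, crygm2c, crygm2b, il19l, hspa1b, tnfrsf9a and msmo1. Whether sequence variants among the pooled WIK larvae at a probe's site take part in such differences was not tested.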

How the data were processed

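Per the labels' protocols, total RNA was prepared from pooled larvae, labelled with Cy3 and hybridised to a 1-colour array. Per the file headers, the deposited scanner files came from Feature Extraction 10.7.3.1 and hold spot intensity, background-subtracted by the authors' scanner software as the processed signal, for a zebrafish design. One label names a mouse array, which the headers do not. The deposited value table holds log2 values of the same arrays, with its scaling not given in the sources used here.

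Control spots and outlier spots were left out. The log2 of the processed intensity minus the array's 75th percentile was taken, spots of a probe were averaged, and each gene was represented by its brightest probe. Well above background is the scanner's mark. Identifiers were matched to symbols through RefSeq tables: 25069 of 43603 probes matched 12858 symbols, and 18534 did not. Of 2339 list entries, 2266 matched a symbol. No test was made, since 1 group is described. The number of arrays, 4, limits the precision, and the labels do not say that pools came from separate clutches, so the spread may be partly technical.

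Named genes have a symbol that is no clone name: the 30 brightest, the 30 with the largest SD, the 10 with the smallest SD among the brightest 1000, up to 10 marked on only some arrays, and of each list up to 5 of the brightest, 4 on no array and 3 of the largest SD. The list members alpi.1, cela1.3, cryaa, cryaba, cyp1c2, ebp, gc, hbae4, hbba1, hbba2, hmgcra, isg15, opn1mw1, opn1mw2, opn1mw3, opn1sw1, opn1sw2, ptf1a, pyya, srebf1 and ttr were named after their values were seen. The members and lists were chosen with earlier results of these data known. Scripts were tested on simulated data. Alternatives were normexp background correction (offset 50, limma 3.58.1 in R 4.3.3), other scalings, probe rules and detection marks, the value table and leaving out each pool. Those on the pool 4 differences, list SDs and departures were chosen after seeing the data. Computation used Python 3.11.15, numpy 2.4.6 and pandas 2.3.3. The samples of the series outside the control group were not used here.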

Additional observations from a re-analysis of the deposited data

Results flagged for a closer look

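Among 60 named genes and 39 lists, a pool lay far from the 3 others relative to the whole range (over Dixon's critical value for 4 samples) in 8 genes and 5 lists. Chance alone marks about 1 in 20 groups, and 5.68% of all detected genes were over it. The 8 genes come from those named for a large spread between pools, so their count is not to be set against these shares. Pool 4 was the distant one for the egg coat gene zp3a.1 (-1.10), the stress regulator nfe2l2a (-0.60), scpp8 (-1.31), the protease genes htra3a (-1.96) and c6ast3 (-1.55), the elastase gene ela3l (4.34) and mmp9 (2.48). Pool 2 was the distant one for panx1a (-4.26). For nfe2l2a, zp3a.1 and panx1a another probe did not show it. Among the lists, the median difference from the gene mean stood apart for the intestine in pool 4 (-0.92), skeletal muscle in pool 3 (-0.081), and in pool 1 for inner ear and lateral line (0.083), translation factors (0.20) and cytoskeleton and common reference genes (0.15). Each can be set beside all detected genes in the level band of the list's median. Genes at 4 to 6, the band of skeletal muscle and of cytoskeleton, differed by -0.04 in pool 3 and 0.14 in pool 1. In pool 1, genes at 2 to 4 (translation factors) differed by 0.09 and those at -2 to 0 (inner ear) by -0.03. Genes at 0 to 2 (intestine) differed by 0.02 in pool 4. Why these lists stood apart was not tested.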

How the results depend on the processing

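No paired analysis was possible because only 1 group is described and no test was made. With the scanner's weaker mark (positive and significant), 1699 probes were above background on no array in place of 5157. Leaving out each pool in turn gave a median between-pool SD of 0.20 to 0.26 over probes above background on all 4 arrays (0.25 with all pools), 0.29 to 1.29 for the exocrine pancreas, 0.17 to 0.72 for the intestine and 0.23 to 0.46 for the liver list. The difference of pool 4 from the gene mean was -1.46 to -1.29 for the exocrine pancreas with another pool left out (-1.58 with all), -0.80 to -0.78 for the intestine (-0.92) and -0.38 to -0.35 for the liver (-0.43). These differences are smaller by construction, since pool 4 then weighs more in the mean. With normexp background correction they were -0.79 for the intestine, -0.35 for the liver and -0.29 for cholesterol and lipid synthesis (-0.50). Departures were fewer under some settings: pool 1 lower in 98 genes with normexp and 125 in the value table (253), pool 4 lower in 202 with normexp (406), and pool 4 higher in 146 in the value table (244). The cause was not tested. The pool 4 differences of the exocrine pancreas, intestine, liver and cholesterol lists kept their sign under the alternatives run. The other results are counts, percentiles and SDs, which cannot change sign. List percentiles rest on the brightest probe of a gene: with the mean over a gene's probes the largest shift was that of myelin, from 76.0 to 65.9, with interferon at 31.5 and kidney at 56.9, and 12 in place of 15 of the 26 tissue lists lay above the 75th percentile. Of the 30 brightest named genes 25 to 30 were shared with each alternative. Of the 30 most variable, 19 were shared with normexp and 8 without pool 4. Low signals limit the lowest levels, where the median SD was 0.32.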
